A study of Mus musculus with 72 samples.

Results

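Livers of germ-free (GF) mice that lack the core clock gene Bmal1 in hepatocytes were compared between late day and late night. The comparison rests on 6 of the 72 libraries of the series, chosen by their labels: 3 GF LKO mice at zeitgeber time 10 (ZT10, 10 hours after lights on) and 3 GF LKO mice at ZT22. All mice were adult males, labelled C57BL/6 and on a C57BL/6J background by the study's methods. LKO mice carried floxed Bmal1 (Bmal1 fl/fl) together with Albumin-Cre. The Albumin promoter drives Cre in hepatocytes, so other liver cells of an LKO mouse may have kept Bmal1, which was not measured. Control mice, called WT here as in the study, also carried Bmal1 fl/fl but no Cre. GF mice were housed in flexible film isolators, and specific pathogen-free (SPF) mice carried a conventional microbiota. The series holds 3 mice of each genotype, SPF or GF, at each of ZT2, ZT6, ZT10, ZT14, ZT18 and ZT22. The GF LKO mice were set beside GF WT and SPF LKO mice of the same 2 ZT, and beside GF LKO mice of ZT6 and ZT18. The study collected such time series to ask how the liver clock and gut microbes shape the daily program of hepatic genes. Nothing in the labels says more than that these were separate samples, so p-values describe the spread between samples. For ZT10 against ZT22 that spread was estimated over all 24 libraries of these 2 ZT, SPF WT mice included.

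BMAL1 and CLOCK form an activator that binds E-box elements and turns on the Per and Cry genes, the Nr1d1 and Nr1d2 genes (REV-ERBα and REV-ERBβ) and the PAR bZIP genes such as Dbp. The REV-ERB proteins repress Arntl, the gene that encodes BMAL1, as well as Npas2 and Clock, while ROR proteins activate them from the same sites. Mice feed mainly at night, so that late day falls near the end of the rest phase and late night near the end of the feeding phase, and hepatic genes also follow food, body temperature, glucocorticoids and other cues that reach the liver from outside.

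The 6 libraries held 17369927 to 19546956 counts assigned to genes, and log2 values correlated between any pair of them at r = 0.9815 or more. Mitochondrial genes took 4.99% to 5.35% of the counts at ZT10 and 4.41% to 6.17% at ZT22. None of the 6 stood apart in these values, which do not test single mice. Arntl, the targeted gene, was at 9.43, 8.76 and 7.37 counts per 1000000 (CPM) in the 3 ZT10 libraries and 9.71, 10.9 and 13.4 at ZT22 (chromosome 7, 113207465 to 113314126, GRCm38). In GF WT mice its mean moved from 0.607 CPM at ZT10 to 36.02 at ZT22. Reads of the deleted exon are not counted apart, and so the level of the gene by itself checks nothing. The test of the difference from GF WT mice is given with the clock genes. Marker genes of hepatocytes summed to 54760 to 62420 CPM at ZT10 and 58260 to 65910 at ZT22. In whole liver a lower level may mean fewer cells of a type or less RNA per cell, and these cannot be told apart.

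Late day and late night differed in a broad set of genes. Of 14636 genes tested by edgeR's quasi-likelihood test, 759 (5.19%) passed an adjusted p of 0.05, of which 404 (2.76%) were higher at ZT10 and 355 (2.43%) lower. The log2 fold change, ZT10 over ZT22, had a median size of 0.69 among the higher genes and 0.77 among the lower ones, and it reached 1 in 89 and 117 of them. In 738 of the 759 genes the 3 ZT10 libraries and the 3 ZT22 libraries did not overlap, a separation also met by 26% of all genes tested. The count of calls depended on single libraries. It was 234 without ZT10 replicate 3, 256 without ZT22 replicate 2 and 287 without ZT22 replicate 3, while it was 530 without ZT10 replicate 1, 535 without ZT10 replicate 2 and 835 without ZT22 replicate 1. The share of higher genes among the calls, 53.2%, was 44.1% without ZT22 replicate 2 and 39.7% without ZT22 replicate 3.

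Mfsd2a, which encodes a transporter of lysophospholipids that carry docosahexaenoic acid, had the highest fold among the 10 largest rises. It was at 11.8, 35.5 and 32.5 CPM in the 3 ZT10 mice and at 1.86, 1.75 and 2.25 CPM in the 3 ZT22 mice (log2 fold change 3.76 ± 0.64 SE, adjusted p = 0.00154). Each ZT10 mouse was far above each ZT22 mouse, although ZT10 replicate 1 was well below its group mates. The gene lies on chromosome 4 from 122946850 to 122961188. Gm15611, a gene model on chromosome 5 from 8998402 to 8999669, was at 8.87, 4.28 and 11.7 CPM against 1.11, 0.931 and 0.802 CPM (3.12 ± 0.41 SE, adjusted p = 0.000191). Both genes, like Nr1d1 and Hamp among the same 10, kept their calls without each of the 6 libraries.

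Other rises among the 10 were less uniform or lay in genes that overlap others or have close paralogs. Chac1, a glutathione-degrading enzyme, was at 2.71, 3.82 and 5.02 CPM at ZT10 and 0.637, 0.698 and 0.588 CPM at ZT22 (2.57 ± 0.64 SE, adjusted p = 0.023), and its call was lost without ZT10 replicate 3 (adjusted p = 0.0963) or without any 1 of the ZT22 libraries (0.0519, 0.0869 and 0.0923). Mt1, a metallothionein, was at 68, 286 and 49.5 CPM against 25.7, 30.8 and 21 CPM (2.38 ± 0.68 SE, adjusted p = 0.0433). The size rested on ZT10 replicate 2, without which the log2 fold change was 1.19 and the adjusted p 0.305, and the call was also lost without any 1 of the ZT22 libraries (0.0875, 0.123 and 0.157). Abcd2, a peroxisomal transporter of very long-chain fatty acids, was at 5.31, 3.87 and 6.12 CPM against 1.17, 1.63 and 0.909 CPM (2.05 ± 0.50 SE, adjusted p = 0.0196), and fell short without ZT10 replicate 3 (0.0831), ZT22 replicate 2 (0.0522) or ZT22 replicate 3 (0.0974). Ces2b, a carboxylesterase with close paralogs, had 1.99 ± 0.49 SE (adjusted p = 0.0216), and fell short without ZT10 replicate 3 (0.153), ZT22 replicate 2 (0.0992) or ZT22 replicate 3 (0.104). Gm10804, a gene model that overlaps Cd82, had 2.48 ± 0.41 SE (adjusted p = 0.00117). Counting did not use the strand and left out reads that overlap both of such genes, so their levels are uncertain.

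**Figure D1:**
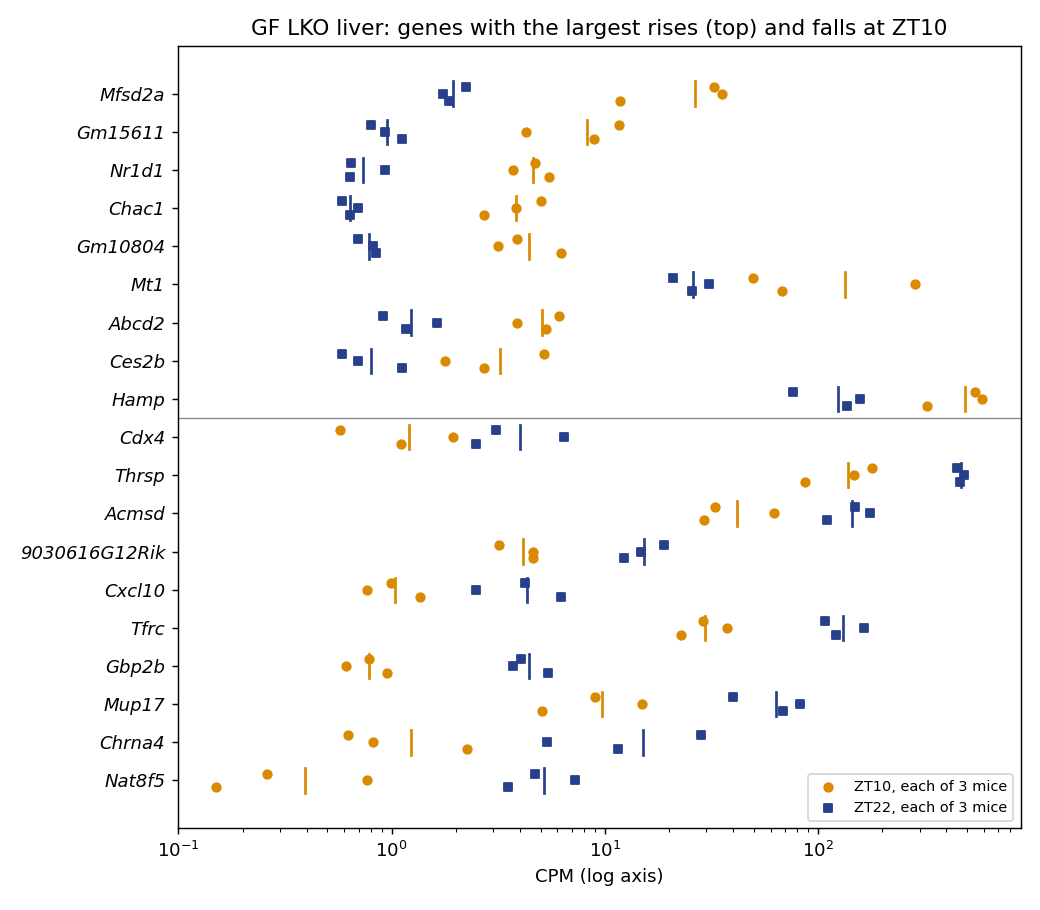
CPM on a log axis in each of the 6 GF LKO mice for 9 of the 10 largest rises and the 10 largest falls, with orange circles for ZT10, blue squares for ZT22 and a vertical bar for the mean of 3 mice. The groups do not overlap in any of the 19 genes, which the rule for choosing them required, while single mice such as ZT10 replicate 2 for Mt1, at 286 CPM, lie far from their group.

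Among the 10 largest falls, genes higher at ZT22, were an iron importer, a lipogenic regulator and interferon-inducible genes. Nat8f5, a member of a family of N-acetyltransferases, was at 0.15, 0.764 and 0.261 CPM at ZT10 and 3.5, 7.27 and 4.71 CPM at ZT22 (-3.69 ± 0.47 SE, adjusted p = 0.000142). Its level is uncertain, since reads that also fit the overlapping paralog Nat8f6 were not counted. Without ZT10 replicate 2 the log2 fold change of Nat8f5 was -4.61. Chrna4, a nicotinic acetylcholine receptor subunit on chromosome 2 from 181018380 to 181043546, was at 2.26, 0.815 and 0.627 CPM against 11.6, 5.35 and 28.2 CPM (-3.60 ± 0.62 SE, adjusted p = 0.00176). It stayed called throughout, at -4.37 without ZT10 replicate 1 and -2.77 without ZT22 replicate 3, so the size varied between mice more than the call. Mup17, 1 of the near-identical major urinary proteins, was at 5.06, 15 and 9.04 CPM against 68.9, 82.4 and 39.8 CPM (-2.71 ± 0.64 SE, adjusted p = 0.0174), with calls lost without ZT10 replicate 1 (0.0713), ZT10 replicate 3 (0.0819) or ZT22 replicate 2 (0.0686). Acmsd, which diverts tryptophan catabolism away from NAD synthesis, was at 29.3, 62.5 and 32.8 CPM against 110, 175 and 149 CPM (-1.80 ± 0.29 SE, adjusted p = 0.00106). The uncharacterised gene 9030616G12Rik had -1.89 ± 0.27 SE (adjusted p = 0.00037). Cdx4, a homeobox gene at 0.575 to 6.46 CPM, had -1.73 ± 0.44 SE (adjusted p = 0.0247), and was not called without ZT10 replicate 1 (0.0765), ZT10 replicate 3 (0.138) or ZT22 replicate 2 (0.189). The other falls among the 10, Tfrc, Thrsp, Gbp2b and Cxcl10, are described with their pathways.

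Without hepatocyte Bmal1 most clock genes did not pass the test between the 2 ZT, and both REV-ERB genes did. Of 19 clock genes tested (Rorb was not), 3 were higher at ZT10 and 1 lower (21.1% called, beside 5.19% of all genes). The median log2 fold change of the list was 0.03, beside -0.01 over all genes. Nr1d1 was at 5.46, 3.72 and 4.70 CPM at ZT10 and 0.637, 0.931 and 0.642 CPM at ZT22 (2.65 ± 0.55 SE, adjusted p = 0.007). Nr1d2 was at 18, 18.2 and 20.3 CPM at ZT10 and 9.13, 7.74 and 7.11 CPM at ZT22 (1.24 ± 0.18 SE, adjusted p = 0.000462). In either gene the lowest ZT10 mouse lay well above the highest ZT22 mouse, and both calls held without each library in turn. Nr1d1 (chromosome 11, 98767932 to 98775333) overlaps Thra on the other strand. Reads that overlap both genes were not counted, so the level of Nr1d1 is uncertain. Nr1d2 lies on chromosome 14 from 18204054 to 18239127.

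The other called clock genes were closer to the threshold. Dbp, a PAR bZIP activator of D-box genes, was at 6.67, 5.60 and 4.39 CPM at ZT10 and 2.97, 2.79 and 1.60 CPM at ZT22 (1.18 ± 0.35 SE, adjusted p = 0.0499). Its groups did not overlap, but the call was lost without each of the 6 libraries, at adjusted p from 0.0554 without ZT22 replicate 1 to 0.214 without ZT22 replicate 3. Npas2, a paralog of Clock that can pair with BMAL1, went the other way, at 20.6, 21.1 and 18.9 CPM against 26.1, 30.4 and 44.5 CPM (-0.74 ± 0.18 SE, adjusted p = 0.0187), and lost its call without ZT10 replicate 3 (0.0906) or ZT22 replicate 3 (0.152, log2 fold change -0.48). Of the 15 clock genes that were not called, the repressors Per1, Per2, Per3, Cry1 and Cry2 had log2 fold changes of 1.04, -0.35, -0.16, -0.52 and 0.03. Those of Clock, Arntl and Rora were -0.25, -0.41 and -0.44. The PAR bZIP genes Tef and Hlf had 0.23 and 0.07, their repressor Nfil3 -0.09, and Bhlhe40 0.27. Ciart and Bhlhe41, at 1.93 and 1.33, were measured at under 2 CPM in every library, and their adjusted p were 0.117 and 0.366.

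In GF WT mice 16 of the same 19 genes were called between ZT10 and ZT22, 9 higher at ZT10 and 7 lower, and in 11 of the 19 the difference between genotypes was itself called. Npas2 had a log2 fold change of -6.44 in GF WT mice, and the difference from GF LKO mice was 5.70 (adjusted p = 1.03e-08). For Arntl the values were -5.88 and 5.47 (adjusted p = 1.11e-09). For Dbp they were 6.45 and -5.27 (adjusted p = 1.57e-06), and for Per3 3.69 and -3.86 (adjusted p = 3.46e-06). Of the REV-ERB genes, Nr1d2 had 3.25 in GF WT mice against 1.24 in GF LKO mice, a called difference of -2.02 (adjusted p = 2.58e-05). Nr1d1 had 3.36 against 2.65, a difference of -0.71 that was not called (adjusted p = 0.83). Its spread in GF WT mice at ZT22 was wide, with a mean of 2.56 CPM and an SD of 2.34. The 2 genes were not tested against each other. The level of Nr1d1 was nonetheless lower in LKO mice, with means at ZT10 of 4.63 CPM in GF LKO and 26.1 CPM in GF WT mice.

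The promoters of 3 clock genes are shown to let the elements of the clock be read beside the values: Nr1d1 and Nr1d2, which differed between ZT10 and ZT22 in GF LKO mice, and Per3, at 3.31 to 3.91 CPM at ZT10 and 3.08 to 4.92 CPM at ZT22, which did not pass the test. Each line gives the 250 bases before a RefSeq start on GRCm38.p6, read 5′ to 3′ on the strand of the gene, which is the minus strand in all 3. Capitals mark matches to the E-box CACGTG, the D-box TTATGNAA and the ROR and REV-ERB core AGGTCA, searched on both strands.
Nr1d1, chr11:98775378-98775627: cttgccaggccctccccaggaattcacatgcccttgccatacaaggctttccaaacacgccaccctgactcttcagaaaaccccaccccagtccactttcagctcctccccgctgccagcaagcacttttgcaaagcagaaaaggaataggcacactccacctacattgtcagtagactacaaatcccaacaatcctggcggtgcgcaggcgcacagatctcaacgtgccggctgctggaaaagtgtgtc
Nr1d2, chr14:18239107-18239356: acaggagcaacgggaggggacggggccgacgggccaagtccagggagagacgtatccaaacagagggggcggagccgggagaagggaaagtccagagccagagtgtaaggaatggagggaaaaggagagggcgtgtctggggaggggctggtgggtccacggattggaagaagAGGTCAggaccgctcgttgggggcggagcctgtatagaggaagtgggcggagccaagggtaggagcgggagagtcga
Per3, chr4:151044666-151044915: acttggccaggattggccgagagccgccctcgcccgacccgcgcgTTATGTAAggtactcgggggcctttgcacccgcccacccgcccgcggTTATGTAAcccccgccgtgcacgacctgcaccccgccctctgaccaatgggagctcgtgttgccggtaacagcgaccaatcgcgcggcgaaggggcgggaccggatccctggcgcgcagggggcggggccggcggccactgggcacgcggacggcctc
Nr1d2 held 1 match, AGGTCA, starting 77 bases before the start, and Per3 held 2 matches, both TTATGTAA, 205 and 158 bases before it. The window of Nr1d1 held none of the 3 motifs, which says only that these letters are not in this window. Of 32851 such windows, from 27025 genes, 6.02% held the E-box, 3.07% the D-box and 14% the core AGGTCA, and a match is a description of the sequence.

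Among the lipid genes that were called, those of fatty acid oxidation were mostly higher at late day and those of lipogenesis were higher at late night, while most members of both lists were not called. Of 51 genes of fatty acid oxidation and PPARA targets, 9 were higher at ZT10 and 1 lower (19.6% called, beside 5.19% of all genes). The median log2 fold change was 0.29. In 19 the ZT10 libraries were all above the ZT22 libraries, beside 12.9% of all genes. Cpt1a, which admits long-chain fatty acids to mitochondria and limits their oxidation, was at 577, 438 and 587 CPM at ZT10 and 229, 221 and 191 CPM at ZT22 (1.32 ± 0.17 SE, adjusted p = 0.000142). Slc27a2, a fatty acid transporter and very long-chain acyl-CoA synthetase, was at 1600, 1889 and 2102 CPM against 987, 1047 and 926 CPM (0.92 ± 0.14 SE, adjusted p = 0.000563). Pnpla2, adipose triglyceride lipase, was at 61.1, 67.9 and 69.8 CPM against 44.8, 29.1 and 26.5 CPM (0.98 ± 0.20 SE, adjusted p = 0.0059). The 3 genes were higher in every ZT10 mouse and kept their calls without each library. Vnn1, a pantetheinase and PPARA target, had 1.08 ± 0.31 SE (adjusted p = 0.0457), carried by ZT10 replicate 3 at 77.8 CPM beside 33.3 and 33. Without that library its log2 fold change was 0.55 and its adjusted p 0.376, and the call was also lost without any 1 of the ZT22 libraries (0.0557, 0.13 and 0.184).

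Outside the rule for naming genes, and picked after their values were seen, 3 more members of the list were higher at ZT10. Acot12, an acetyl-CoA thioesterase, and Bdh1, a ketone body dehydrogenase, had log2 fold changes of 0.91 and 0.86 and stayed called without each library. Pex11a, a peroxisome proliferation factor, had 0.69 and kept its call only without ZT10 replicate 1 (adjusted p up to 0.21, without ZT10 replicate 3). The single member that was higher at ZT22 was Crat, which converts acetyl-CoA to acetylcarnitine, at 13.1, 12.6 and 14 CPM against 29, 46.6 and 36.5 CPM (-1.50 ± 0.21 SE, adjusted p = 0.00037). Ppara itself was at 65.6, 69.6 and 98.4 CPM against 53, 45.3 and 41.8 CPM and did not pass the test (0.74 ± 0.26 SE, adjusted p = 0.102). Pdk4, which blocks glucose oxidation, lay the other way at 16.8, 14.5 and 19.7 CPM against 40.4, 36.3 and 29.6 CPM, without overlap but short of the threshold (-1.06 ± 0.32 SE, adjusted p = 0.0537).

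All 6 of the called genes among 23 of de novo lipogenesis (26.1%, beside 5.19% of all genes) were higher at ZT22. The median log2 fold change of the list was -0.40. Thrsp, a regulator of lipogenic enzymes on chromosome 7 from 97412938 to 97417730, was at 87.3, 148 and 179 CPM at ZT10 and 465, 485 and 451 CPM at ZT22 (-1.76 ± 0.34 SE, adjusted p = 0.00455). Acacb, the mitochondrial acetyl-CoA carboxylase whose malonyl-CoA inhibits CPT1, was at 25.2, 18.5 and 24.4 CPM against 107, 44.9 and 68.4 CPM (-1.69 ± 0.41 SE, adjusted p = 0.0184). Mlxipl, which encodes the carbohydrate-responsive factor ChREBP, was at 54.8, 55.9 and 52.8 CPM against 86.2, 122 and 145 CPM (-1.11 ± 0.26 SE, adjusted p = 0.0157). Every ZT22 mouse was above every ZT10 mouse in these genes, and the ZT10 mice were the closer to each other for Mlxipl. Acly, which makes cytosolic acetyl-CoA from citrate, had -1.06 ± 0.25 SE (adjusted p = 0.0174), and Elovl6, an elongase, -0.88 ± 0.24 SE (adjusted p = 0.0384).

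Single libraries decided several of these calls. Between 1 and 5 of the 23 lipogenic genes were called with 1 library left out. Thrsp kept its call throughout. Acacb lost it without ZT10 replicate 2 (0.066), ZT10 replicate 3 (0.0698) or ZT22 replicate 1 (0.0692), and Acly without ZT10 replicate 3 (0.0984) or ZT22 replicate 3 (0.0579). Mlxipl lost it without ZT10 replicate 3 (0.0709), ZT22 replicate 2 (0.0567) or ZT22 replicate 3 (0.0851). Elovl6 lost it in all but the fit without ZT22 replicate 1, at adjusted p up to 0.214 without ZT22 replicate 3. The sixth gene, Pgd of the pentose phosphate pathway, named after its values were seen, had -0.67 and was not called without ZT10 replicate 2, ZT10 replicate 3, ZT22 replicate 1 or ZT22 replicate 3 (adjusted p up to 0.14). The master regulator Srebf1 and the synthase Fasn had -1.16 ± 0.38 SE (adjusted p = 0.0754) and -1.01 ± 0.41 SE (adjusted p = 0.158).

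In cholesterol synthesis and uptake, 0 of 27 genes were higher at ZT10 and 2 lower (7.41% called, beside 5.19% of all genes), with a median of -0.36. Pmvk, a kinase of the mevalonate pathway, was at 85.3, 72.2 and 74.8 CPM against 144, 98.4 and 177 CPM (-0.85 ± 0.23 SE, adjusted p = 0.0364), and its call was kept only without ZT22 replicate 2 (adjusted p up to 0.191, without ZT22 replicate 3). Insig1, which retains SREBP in the endoplasmic reticulum, was at 280, 255 and 179 CPM against 424, 385 and 394 CPM (-0.75 ± 0.22 SE, adjusted p = 0.0497), a call lost without each of the 6 libraries (0.0531 to 0.239). Both groups of mice were separate in these genes, but the margin to the threshold was small. Among 33 genes of triglycerides, lipoproteins and lipases, 4 were higher and 1 lower (15.2% called, beside 5.19% of all genes), with a median of 0.06. Lipg, endothelial lipase, had 1.46 ± 0.38 SE (adjusted p = 0.0279, kept without ZT10 replicate 1 or ZT22 replicate 1 and up to 0.147 without the others). Apoa5, an activator of triglyceride hydrolysis, had 0.69 ± 0.18 SE (adjusted p = 0.0252, and 0.146, 0.0854 and 0.142 without ZT10 replicate 3, ZT22 replicate 2 and ZT22 replicate 3). Dgat1, the last enzyme of triglyceride synthesis, had 0.46 ± 0.11 SE (adjusted p = 0.0209, and 0.0574, 0.0882 and 0.125 without ZT10 replicate 2, ZT10 replicate 3 and ZT22 replicate 3). Gpam, which starts glycerolipid synthesis, was at 221, 198 and 153 CPM against 355, 312 and 399 CPM (-0.89 ± 0.18 SE, adjusted p = 0.0057, and 0.0515 without ZT10 replicate 3).

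**Figure D2:**
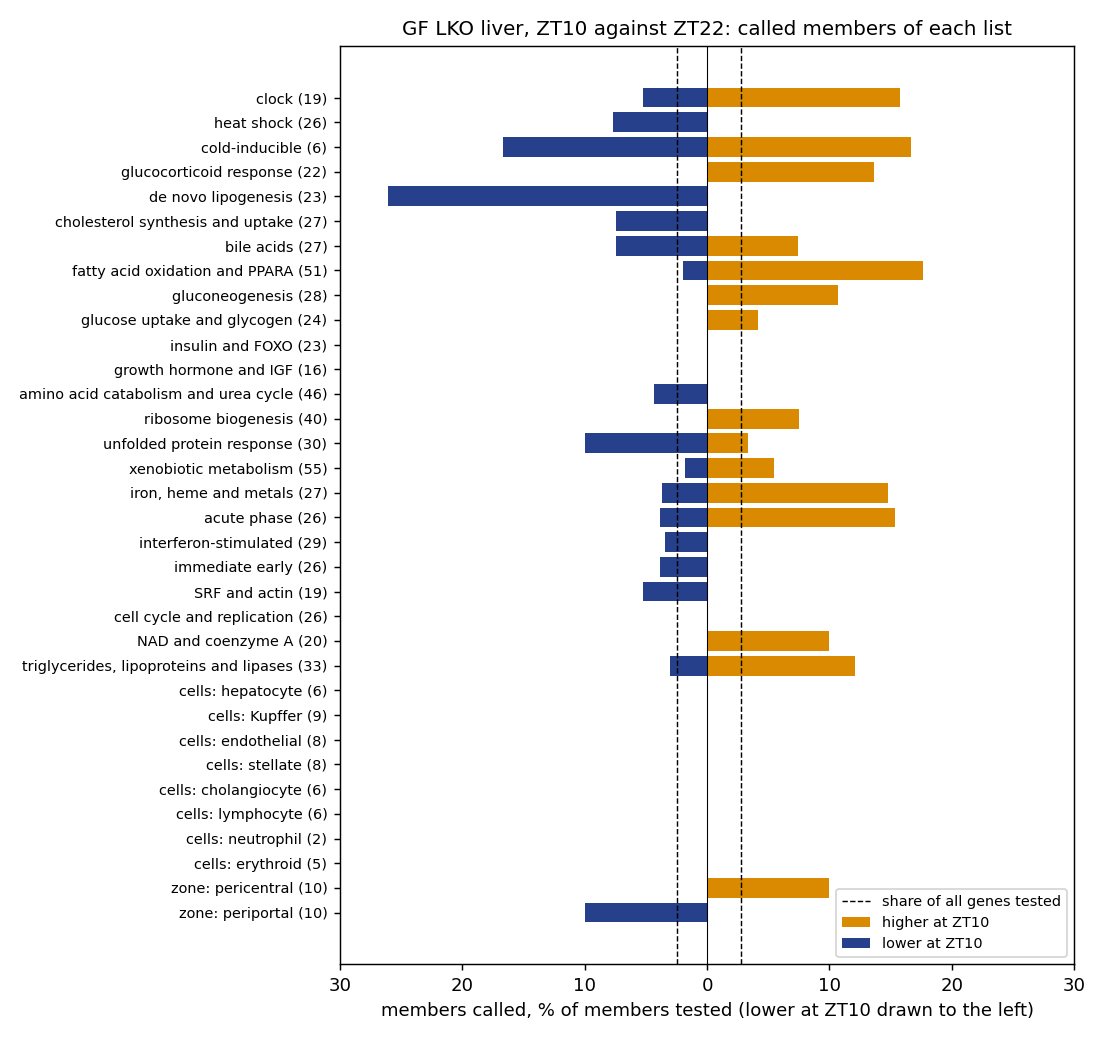
Share in percent of the tested members of each of 34 gene lists that were called between ZT10 and ZT22 in GF LKO mice, drawn for genes higher and genes lower at ZT10, with dashed lines at the shares over all genes (2.76% and 2.43%). Lipogenesis has calls on the ZT22 side only, fatty acid oxidation mainly on the ZT10 side, and the lists of cell types have none.

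In gluconeogenesis, a process at the centre of the study, most genes were not called. Of 28 genes 3 were higher at ZT10 and 0 lower (10.7% called, beside 5.19% of all genes), with a median of 0.02. Aqp9, the channel that admits glycerol, was at 544, 538 and 560 CPM against 392, 392 and 314 CPM (0.58 ± 0.13 SE, adjusted p = 0.0111, and 0.0515 and 0.0763 without ZT10 replicate 3 and ZT22 replicate 3). Slc37a4, the glucose-6-phosphate translocase, was at 152, 275 and 257 CPM against 127, 105 and 153 CPM (0.83 ± 0.18 SE, adjusted p = 0.00976), and its groups overlapped by a small margin. Its adjusted p was 0.0514, 0.0632 and 0.074 without ZT10 replicate 2, ZT10 replicate 3 and ZT22 replicate 2. Gpt2, mitochondrial alanine transaminase, had 0.62 ± 0.14 SE (adjusted p = 0.0115, and 0.0575, 0.0684 and 0.0546 without ZT10 replicate 2, ZT10 replicate 3 and ZT22 replicate 3). Pck1, the cytosolic enzyme that commits carbon to gluconeogenesis, was at 3248, 4693 and 4527 CPM against 2797, 2302 and 2327 CPM, without overlap, and did not pass the test on all 24 libraries (0.75 ± 0.48 SE, adjusted p = 0.393). It was called when only the 6 libraries were fitted (adjusted p = 0.0388) or the 18 GF LKO libraries (0.0311), but the same fits ended the calls of 21 and of 6 of the 83 called genes that the naming rule chose. G6pc, which releases glucose, had 0.69 ± 0.35 SE (adjusted p = 0.273), Fbp1 -0.05 ± 0.13 SE (adjusted p = 0.878) and the mitochondrial Pck2 0.00 ± 0.22 SE (adjusted p = 0.998). Of 24 genes of glucose uptake and glycogen only Slc2a2, the hepatic glucose transporter GLUT2, was called (4.17%, beside 5.19% of all genes). Slc2a2 was at 320, 311 and 332 CPM against 237, 184 and 232 CPM (0.56 ± 0.15 SE, adjusted p = 0.0302). Its call was kept only without ZT22 replicate 1 (adjusted p up to 0.165, without ZT22 replicate 2).

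Hormone-responsive lists held 3 calls or fewer each. Of 22 glucocorticoid-responsive genes 3 were higher and 0 lower (13.6% called, beside 5.19% of all genes), and the median log2 fold change was 0.73. In 10 genes all ZT10 mice were above all ZT22 mice, beside 12.9% of all genes. Fkbp5, a co-chaperone of the glucocorticoid receptor, was at 24.2, 75.6 and 83.4 CPM against 14.3, 13.1 and 25 CPM (1.81 ± 0.48 SE, adjusted p = 0.0293), so ZT10 replicate 1 lay within the range of ZT22. The adjusted p was 0.081, 0.141, 0.0782 and 0.139 without ZT10 replicate 2, ZT10 replicate 3, ZT22 replicate 1 and ZT22 replicate 2. Sgk1, a kinase induced by glucocorticoids, was at 68, 57.9 and 57.1 CPM against 41.2, 26.8 and 21.8 CPM (1.03 ± 0.28 SE, adjusted p = 0.0373) and was called only with all 6 libraries or without ZT22 replicate 1 (adjusted p up to 0.175, without ZT22 replicate 3). The third was Mt1. Tat, Tsc22d3 and Per1, often used as reporters of the hormone, had 0.62, 0.43 and 1.04 (adjusted p = 0.32, 0.663 and 0.427). Of 23 genes of insulin and FOXO signalling 0 were called by edgeR, with 8 at an unadjusted p under 0.05, 0 by DESeq2 and 4 higher in the fit of 18 GF LKO libraries, and the median was 0.33. Igfbp1 in that list had 0.90 ± 0.70 SE (adjusted p = 0.502). Of 16 growth hormone and IGF genes 0 were called by edgeR, with 0 at an unadjusted p under 0.05 and 0 by DESeq2, 8 had a positive log2 fold change, and the median was 0.01. Immediate early genes had a median of 0.70, but their summed level ran from 307.3 to 937.6 CPM at ZT10 against 279.4 to 299.9 CPM at ZT22. Of 26 the only call (3.85%, beside 5.19% of all genes) was Btg1, an antiproliferative gene, in the other direction (-0.87 ± 0.17 SE, adjusted p = 0.00472).

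Among amino acid genes, Cth, which makes cysteine by transsulfuration, was at 539, 749 and 494 CPM against 811, 1880 and 1288 CPM (-1.16 ± 0.26 SE, adjusted p = 0.0117, and 0.0783 and 0.105 without ZT10 replicate 3 and ZT22 replicate 2). Arg1, the arginase of the urea cycle, had -0.44 ± 0.12 SE (adjusted p = 0.0384, and 0.17, 0.16, 0.138 and 0.118 without ZT10 replicate 1, ZT10 replicate 3, ZT22 replicate 2 and ZT22 replicate 3). The other 44 of 46 genes in this list were not called (4.35% called, beside 5.19% of all genes), and the median was -0.07.

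Few heat shock and secretory genes were called. Of 26 heat shock genes 0 were higher at ZT10 and 2 lower (7.69% called, beside 5.19% of all genes). Their median was -0.25, and 4 had a positive log2 fold change. In 10 all ZT22 mice were above all ZT10 mice, beside 13.1% of all genes. Fkbp4, a co-chaperone of HSP90, was at 146, 178 and 176 CPM against 255, 296 and 323 CPM (-0.80 ± 0.13 SE, adjusted p = 0.00087), and kept its call without each library. Hspa4l, an HSP110 chaperone, had -1.08 ± 0.27 SE (adjusted p = 0.0214), which was kept only without ZT10 replicate 2 or ZT22 replicate 1 (adjusted p up to 0.139, without ZT22 replicate 3). Hsp90aa1 had -0.80 ± 0.33 SE and Hspa1b -0.21 ± 0.72 SE (adjusted p = 0.164 and 0.906). In the list of 6 cold-inducible genes 1 was higher at ZT10 and 1 lower (33.3% called, beside 5.19% of all genes). The median was -0.45, and in 4 all ZT22 mice were above all ZT10 mice, beside 13.1% of all genes. Cirbp, an RNA-binding protein induced by cold, was the only member with a positive log2 fold change, at 18.9, 23 and 14.1 CPM against 10.2, 9.54 and 7.54 CPM (1.04 ± 0.25 SE, adjusted p = 0.0184, and 0.0744, 0.0626 and 0.097 without ZT10 replicate 2, ZT22 replicate 2 and ZT22 replicate 3). Rbm3, another cold-induced RNA-binding protein, did not pass the test (-0.06 ± 0.25 SE, adjusted p = 0.92). Clk4, a temperature-sensitive splicing kinase, had -0.73 ± 0.17 SE (adjusted p = 0.0179, and 0.0933, 0.111 and 0.0717 without ZT10 replicate 3, ZT22 replicate 2 and ZT22 replicate 3). Of 30 genes of the unfolded protein response 13 had a positive log2 fold change, and the median was -0.17. In this list 1 gene was higher, Chac1, and 3 lower (13.3% called, beside 5.19% of all genes). The 3 were the disulfide isomerases Pdia6 (-0.64 ± 0.18 SE) and Pdia3 (-0.55 ± 0.15 SE) and the translocon subunit Ssr3 (-0.41 ± 0.10 SE), with adjusted p of 0.0368, 0.0338 and 0.0255. None of the 3 was called without ZT10 replicate 1, ZT22 replicate 2 or ZT22 replicate 3, at adjusted p from 0.0855 to 0.146, and Pdia6 and Pdia3 were not called without ZT10 replicate 3 either (0.0895 and 0.0919). Ribosome biogenesis genes lay mostly on the ZT10 side by sign. Of 40 genes 36 had a positive log2 fold change, beside 7144 of all 14636 genes, and the median was 0.37. The list held 3 calls (7.5%, beside 5.19% of all genes), Polr1b (0.69 ± 0.20 SE), Nop14 (0.57 ± 0.16 SE) and Pes1 (0.42 ± 0.12 SE), with adjusted p of 0.0426, 0.0368 and 0.0361. Each of these was lost without ZT10 replicate 1, ZT10 replicate 3, ZT22 replicate 2 or ZT22 replicate 3, at adjusted p from 0.0658 to 0.27.

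Iron genes included differences in either direction that held without each library. Hamp encodes hepcidin, the hormone that degrades the iron exporter ferroportin, and Tfrc encodes transferrin receptor 1, whose transcript is stabilized when cells are short of iron. Hamp was at 325, 590 and 547 CPM at ZT10 and 137, 158 and 76.7 CPM at ZT22 (1.98 ± 0.36 SE, adjusted p = 0.00293). Tfrc was at 22.7, 37.3 and 28.8 CPM at ZT10 and 121, 165 and 108 CPM at ZT22 (-2.15 ± 0.32 SE, adjusted p = 0.000462). The lowest ZT10 mouse had more Hamp than any ZT22 mouse, the highest ZT10 mouse had less Tfrc than any ZT22 mouse, and both calls held without each library. Tfrc lies on chromosome 16 from 32608920 to 32632794, and Hamp on chromosome 7 from 30942368 to 30944032, where it overlaps the gene model Gm44662 and has the close paralog Hamp2. Alas1, the rate-limiting enzyme of heme synthesis, was at 294, 246 and 506 CPM against 119, 180 and 93.6 CPM (1.41 ± 0.29 SE, adjusted p = 0.00697, and 0.0709 and 0.0546 without ZT10 replicate 3 and ZT22 replicate 3). Slc39a14, a zinc and iron importer, was at 257, 259 and 300 CPM against 173, 142 and 175 CPM (0.74 ± 0.15 SE, adjusted p = 0.00692, and 0.05 and 0.0563 without ZT10 replicate 3 and ZT22 replicate 2). With Mt1, 4 of 27 genes of iron, heme and metals were higher and 1, Tfrc, lower (18.5% called, beside 5.19% of all genes). The median was 0.02.

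The promoter of Hamp is shown because the gene kept its call without each library and because elements of its regulation by BMP and by interleukin 6 are known. The line gives 250 bases before the RefSeq start on GRCm38.p6, on the minus strand, 5′ to 3′, with capitals for matches to the core of the BMP response element, GGCGCC, and to the STAT site TTCNNNGAA, searched on both strands.
Hamp, chr7:30944030-30944279: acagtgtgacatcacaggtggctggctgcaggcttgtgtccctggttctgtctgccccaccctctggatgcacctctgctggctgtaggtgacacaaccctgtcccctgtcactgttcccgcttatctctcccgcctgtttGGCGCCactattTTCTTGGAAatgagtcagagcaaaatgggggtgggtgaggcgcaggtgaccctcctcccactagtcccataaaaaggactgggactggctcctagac
GGCGCC started 109 bases and TTCTTGGAA 97 bases before the start. Among the 32851 windows 9.59% held the former motif and 7.02% the latter.

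Acute phase genes did not move as a block. Of 26, 4 were higher and 1 lower (19.2% called, beside 5.19% of all genes), with a median of 0.31. Fga, a chain of fibrinogen, was at 7514, 10234 and 8418 CPM against 6563, 4273 and 4446 CPM (0.78 ± 0.16 SE, adjusted p = 0.00709, and 0.0593 and 0.0538 without ZT22 replicate 2 and ZT22 replicate 3). Fgb, another chain, had 0.59 ± 0.13 SE (adjusted p = 0.0115, and 0.0688 and 0.0805 without ZT10 replicate 2 and ZT22 replicate 2). Serpina3n, a protease inhibitor, had 0.75 ± 0.21 SE (adjusted p = 0.0389) and overlapping groups, with losses without ZT10 replicate 2 (0.198, log2 fold change 0.49), ZT10 replicate 3 (0.0963), ZT22 replicate 2 (0.15) or ZT22 replicate 3 (0.189). Steap4, a metalloreductase, had 0.66 ± 0.17 SE (adjusted p = 0.0258, and 0.114, 0.0624, 0.133 and 0.124 without ZT10 replicate 1, ZT10 replicate 3, ZT22 replicate 2 and ZT22 replicate 3). Crp, C-reactive protein, was higher at ZT22 at 556, 616 and 543 CPM against 816, 1005 and 1062 CPM (-0.75 ± 0.16 SE, adjusted p = 0.00692) and kept its call without each library.

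Interferon-inducible genes were higher at late night in the few cases that passed. Irf1, a transcription factor induced by interferon γ, was at 7.87, 7.84 and 6.17 CPM against 20.8, 15.4 and 18.9 CPM (-1.33 ± 0.24 SE, adjusted p = 0.0024). Gbp2b, an interferon-induced GTPase with near-identical paralogs, was at 0.953, 0.611 and 0.784 CPM against 5.41, 3.72 and 4.06 CPM (-2.48 ± 0.53 SE, adjusted p = 0.00814). Cxcl10, a chemokine induced by interferon γ, was at 1.35, 0.764 and 0.993 CPM against 6.21, 2.5 and 4.22 CPM (-2.05 ± 0.52 SE, adjusted p = 0.0247), and its adjusted p was 0.0822, 0.0984, 0.0797 and 0.0657 without ZT10 replicate 2, ZT10 replicate 3, ZT22 replicate 1 and ZT22 replicate 3. Irf1 and Gbp2b kept their calls without each library. Irf1 was the only called gene of 29 in the interferon list (3.45% called, beside 5.19% of all genes), which holds neither Gbp2b nor Cxcl10. In 13 of the 29 all ZT22 mice were above all ZT10 mice, beside 13.1% of all genes. The list summed to 517.8 to 534.1 CPM at ZT10 and 637.3 to 738.2 CPM at ZT22. Kupffer cell markers lay the same way, at 231.5 to 274.5 CPM at ZT10 and 277.2 to 348.8 CPM at ZT22 in sum, with 3 of 9 markers not overlapping, none of the 9 at 0 in any library, and a median of -0.28. edgeR called 0 of these 9, DESeq2 0, and 2 had an unadjusted p under 0.05. The part of these cells in the interferon values was not tested.

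The markers of other liver cells gave no calls by edgeR. Of 8 endothelial markers DESeq2 called 1 and 2 were under 0.05 by unadjusted p, for 8 stellate markers these numbers were 0 and 0, for 6 cholangiocyte markers 0 and 0, for 6 lymphocyte markers 0 and 1, for 5 erythroid markers 0 and 0, and for 6 hepatocyte markers 0 and 2. Summed endothelial markers ran from 217.5 to 222.7 CPM at ZT10 and 211.7 to 245.9 CPM at ZT22, and stellate markers from 439.8 to 494.6 CPM and 435.5 to 498.6 CPM. Lymphocyte markers were near the limit of detection, at 1.255 to 1.579 CPM and 1.444 to 2.176 CPM in sum. Of 5 neutrophil markers Mpo and Ly6g had no count in the 6 libraries, and 2 were tested, with a sum of 0.752 to 2.248 CPM at ZT10 and 0.1164 to 0.6899 CPM at ZT22, 1 unadjusted p under 0.05 and 1 call by DESeq2. Of genes that mark the lobule's zones, Cyp2e1 was the only pericentral gene called of 10, and Arg1 the only periportal gene of 10. Each share is 10%, beside 5.19% of all genes.

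Bile acid and xenobiotic genes differed in single members. Of 27 bile acid genes 2 were higher and 2 lower (14.8% called, beside 5.19% of all genes), with a median of -0.01. Akr1d1, a reductase of bile acid synthesis, was at 203, 163 and 169 CPM against 282, 304 and 308 CPM (-0.74 ± 0.15 SE, adjusted p = 0.00607) and kept its call. Nr5a2, the nuclear receptor LRH-1, was at 47.8, 61.7 and 46.3 CPM against 77.1, 82.6 and 82.2 CPM (-0.63 ± 0.13 SE, adjusted p = 0.00745, and 0.061 without ZT10 replicate 3). The transporters Abcc3 (0.72 ± 0.21 SE, adjusted p = 0.0482) and Abcb4 (0.58 ± 0.14 SE, adjusted p = 0.0213) were higher at ZT10. Abcc3 was lost without each of the 6 libraries (0.0556 to 0.181), and Abcb4 without ZT10 replicate 1 (0.104), ZT10 replicate 3 (0.0703), ZT22 replicate 2 (0.0998) or ZT22 replicate 3 (0.101). Cyp7a1, the rate-limiting enzyme of bile acid synthesis, was at 199, 249 and 291 CPM against 96.8, 238 and 84.3 CPM, and ZT22 replicate 2 lay within the range of ZT10 (0.82 ± 0.53 SE, adjusted p = 0.402).

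Of 55 xenobiotic genes 3 were higher and 1 lower (7.27% called, beside 5.19% of all genes), with a median of -0.18. Besides Alas1 these were Cyp2d9 (0.62 ± 0.13 SE, adjusted p = 0.00814), which has near-identical paralogs, Cyp2e1 (0.55 ± 0.15 SE, adjusted p = 0.039), which oxidizes ethanol, and Txnrd1, thioredoxin reductase, with -0.33 ± 0.09 SE (adjusted p = 0.0302). Cyp2d9 was lost without ZT10 replicate 3 (0.0675) or ZT22 replicate 3 (0.0565). Cyp2e1 was lost without ZT10 replicate 1 (0.0832), ZT10 replicate 3 (0.203), ZT22 replicate 2 (0.101) or ZT22 replicate 3 (0.199), and Txnrd1 without ZT10 replicate 2 (0.11), ZT10 replicate 3 (0.103), ZT22 replicate 1 (0.0651) or ZT22 replicate 2 (0.14). In NAD and coenzyme A metabolism 2 of 20 genes were higher (10% called, beside 5.19% of all genes), Vnn1 and Nadsyn1. Nadsyn1, an NAD synthetase, had 0.58 ± 0.15 SE (adjusted p = 0.0302, and 0.0634, 0.121, 0.158 and 0.0771 without ZT10 replicate 2, ZT10 replicate 3, ZT22 replicate 2 and ZT22 replicate 3). Of 19 genes of SRF and actin 1 was lower (5.26% called, beside 5.19% of all genes). It was Myl9, a myosin light chain, at 2.16, 2.65 and 2.09 CPM against 6.69, 1.98 and 6.42 CPM, so that ZT22 replicate 2 lay with the ZT10 mice (-1.13 ± 0.31 SE, adjusted p = 0.0359). It was kept only without that library (adjusted p up to 0.17, without ZT22 replicate 3). Of 26 cell cycle genes edgeR called 0 and DESeq2 0, and for 7 the unadjusted p was under 0.05.

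GF WT mice gave more calls than GF LKO mice over the same 2 ZT, 1754 of 14636 (12%), with 870 (5.94%) higher at ZT10 and 884 (6.04%) lower. Of the 404 genes higher in GF LKO mice, 179 were also higher in GF WT mice, which is 44.3% of the former and 20.6% of the latter list. Of the 355 lower genes 160 were shared, 45.1% and 18.1%. The 404 genes had a median log2 fold change of 0.42 in GF WT mice, and the 355 genes -0.47, and their sign was the same in 89.6% and 89.9% of them, beside 66.3% of all genes. Cpt1a (1.32 in GF LKO and 1.16 in GF WT mice, difference 0.16 ± 0.23, adjusted p = 0.89), Fkbp4 (-0.80 and -0.81, difference 0.01 ± 0.18, adjusted p = 0.994) and Crat (-1.50 and -1.69, difference 0.19 ± 0.30, adjusted p = 0.9) had fold changes of the same sign in both genotypes and a difference (± SE) that did not pass the test.

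The difference between genotypes was called in 306 genes (2.09%), with 196 (1.34%) above 0 in GF LKO minus GF WT mice and 110 (0.752%) below 0. Of the 306, 58 were called in GF LKO mice, 238 in GF WT mice only and 10 in neither. In 157 of the 306 the 2 genotypes had opposite signs. Among the 404 genes higher at ZT10 in GF LKO mice 20 differed, 15 of them with the larger value in GF LKO mice, and among the 355 lower genes 38 differed, 21 of them with the larger fall in GF LKO mice. Thrsp turned direction, with -1.76 in GF LKO and 1.63 in GF WT mice (difference -3.39, adjusted p = 0.000131), as did Elovl6, with -0.88 and 0.77 (difference -1.65, adjusted p = 0.00876). Tubb2a, a β-tubulin at 48.1, 45 and 38 CPM against 96, 119 and 109 CPM in GF LKO mice, differed in either genotype but far more in GF WT mice (-1.31 ± 0.15 SE and -4.18, difference 2.88, adjusted p = 2.65e-08). Gm15611 was higher at ZT10 by 3.12 in GF LKO and 0.53 in GF WT mice (difference 2.59, adjusted p = 0.0134). Fga and Fgb were higher at ZT10 in GF LKO mice and had -0.26 and -0.25 in GF WT mice, with differences of 1.03 and 0.84 (adjusted p = 0.0138 for each). Mup17 had 0.63 in GF WT mice (difference -3.35, adjusted p = 0.0409). Tfrc, with -2.15 in GF LKO and -0.53 in GF WT mice, was just short of a called difference (-1.62, adjusted p = 0.0559), and Hamp, with 1.98 and 0.52, was not called (1.45, adjusted p = 0.177).

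**Figure D3:**
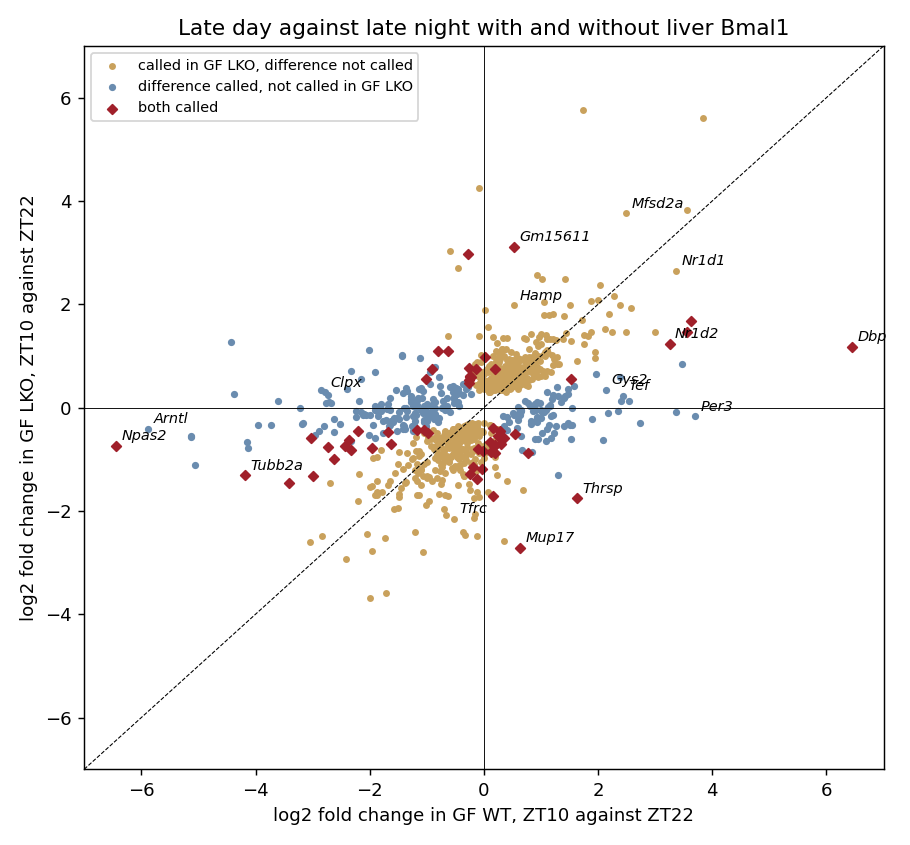
Log2 fold change of ZT10 over ZT22 in GF WT mice (horizontal axis) and GF LKO mice (vertical axis) for the genes called in GF LKO mice or in the test of the difference between genotypes, with a dashed line of equality and colours for calls in GF LKO mice, calls of the difference and both. Clock genes such as Npas2, Arntl and Dbp lie farther from 0 along the horizontal axis than along the vertical one, and Thrsp lies in the quadrant of opposite signs.

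SPF LKO mice, with the same deletion and a microbiota, gave 118 calls over the same 2 ZT (0.806%), 45 (0.307%) higher at ZT10 and 73 (0.499%) lower. Of these, 23 and 36 were also called in GF LKO mice in the same direction, which is 51.1% and 49.3% of the SPF LKO lists and 5.69% and 10.1% of the GF LKO lists. The genes called higher in GF LKO mice had a median of 0.24 in SPF LKO mice and the lower ones -0.29, with the same sign in 89.4% and 83.1%, beside 59.9% of all genes. No difference between GF LKO and SPF LKO mice was called, so the unequal counts of calls do not show that any gene differed. edgeR called 0 (percent called 0), the smallest adjusted p was 0.24, and 1558 genes had an unadjusted p under 0.05. DESeq2 called 15, and a fit on only the 12 libraries of the 2 groups called 3, Tfrc, Gbp2b and Mup17. Tfrc had the smallest unadjusted p, with -2.15 in GF LKO and 0.04 in SPF LKO mice, and in the fit of 12 libraries the difference was -2.19 (adjusted p = 0.00539). Gbp2b and Mup17 had 0.32 and 0.96 in SPF LKO mice, and differences of -2.80 and -3.67 in that fit (adjusted p = 0.00471 and 0.0491).

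Other genes with the smallest p in this comparison had moderate differences. Zranb2, a splicing regulator, had -0.87 in GF LKO and -0.11 in SPF LKO mice, Ola1, an ATPase of the Obg family, -0.59 and 0.08, and Tmem37 -0.64 and 0.04. Xkr9 had -0.96 and -0.13, 0610031O16Rik -0.81 and -0.01, and Tcaim, a mitochondrial protein, -0.50 and 0.28. Ccndbp1, a partner of cyclin D1, lay the other way with 0.76 and 0.12. The zinc finger genes Zfp970 and Gm14403, which were not called in GF LKO mice, had -0.32 and 1.16 and -0.50 and 0.84. All of these had an adjusted p of 0.24 for the difference. In GF LKO mice Zranb2, Ola1, Tmem37, Xkr9, 0610031O16Rik and Ccndbp1 kept their calls without each library, and Tcaim did not without ZT10 replicate 1 (0.0594), ZT10 replicate 3 (0.0783) or ZT22 replicate 2 (0.138). Nr1d2 had 1.78 in SPF LKO mice (adjusted p = 1.91e-05), Nr1d1 1.65 (0.0895), Cpt1a 0.71 (0.0446) and Mfsd2a 1.70 (0.119). Dbp had 1.93 (0.0121) and Npas2 -0.76 (0.0432).

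The 12 GF LKO libraries of the other 4 ZT took no part in choosing the 759 genes. Between ZT6 and ZT18, 4 hours earlier than each of the 2 ZT, 2235 genes (15.3%) were called in GF LKO mice, 1092 (7.46%) higher at ZT6 and 1143 (7.81%) lower. Of the 404 genes higher at ZT10, 129 were higher at ZT6 and 10 lower, and of the 355 lower genes, 116 were lower at ZT6 and 8 higher. The shared genes were 31.9% and 32.7% of the GF LKO lists and 11.8% and 10.1% of the ZT6 and ZT18 lists. The sign was kept in 75% and 74.1%, beside 57.3% of all genes.

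Named genes followed several courses over the 6 ZT. Nr1d1 ran through 1.08, 2.97, 4.63, 2.83, 1.21 and 0.736 CPM from ZT2 to ZT22 in GF LKO mice, and Nr1d2 through 9.93, 14.7, 18.9, 11.3, 9.45 and 7.99 CPM, and both were called between ZT6 and ZT18 too (log2 fold change 1.29 and 0.64, adjusted p = 0.0123 and 0.0061). Cpt1a peaked at ZT10 with 534 CPM between 320 at ZT6 and 351 at ZT14 (ZT6 over ZT18, 0.65, adjusted p = 0.00154). Mfsd2a was highest at ZT10 and ZT14, at 26.6 and 14.2 CPM, with 1.75 CPM at ZT6 and 4.90 CPM at ZT18 (-1.49, adjusted p = 0.234). Hamp was high from ZT6 to ZT18, at 394, 487, 700 and 554 CPM, and low at ZT22 and ZT2, at 124 and 174 CPM, and did not differ detectably between ZT6 and ZT18 (-0.49, adjusted p = 0.195). Tfrc was low at ZT6 and ZT10, at 24.7 and 29.6 CPM, and high at ZT18 and ZT22, at 164 and 131 CPM (-2.73, adjusted p = 3.05e-05). Thrsp had its minimum of 84.1 CPM at ZT6 and its maximum of 605 CPM at ZT18 in GF LKO mice (-2.85, adjusted p = 5.36e-08), whereas GF WT mice had 1195, 1335, 1976 and 1557 CPM from ZT6 to ZT18. Fkbp4 went with Tfrc, lowest at ZT10 with 167 CPM and highest at ZT18 with 337 CPM (-0.84, adjusted p = 0.000125).

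Lists could be read in the same way between ZT6 and ZT18. This fit took its spread from all 18 GF LKO libraries, those of ZT10 and ZT22 included. A fit of only the 6 libraries of ZT6 and ZT18 gave 1567 calls in place of 2235. Heat shock genes, with 2 of 26 lower at ZT10, had 13 lower at ZT6 than at ZT18 and 0 higher. Genes of the unfolded protein response had 21 of 30 lower at ZT6 and 1 higher, lipogenic genes 8 of 23 lower and 0 higher, and cholesterol genes 14 of 27 lower and 2 higher. Fatty acid oxidation had 6 of 51 higher and 4 lower. Ribosome biogenesis, whose 3 calls were higher at ZT10, had 0 higher at ZT6 and 10 lower. Interferon genes had 2 higher and 2 lower of 29. These shares read against 7.46% of all genes higher and 7.81% lower between ZT6 and ZT18.

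**Figure D4:**
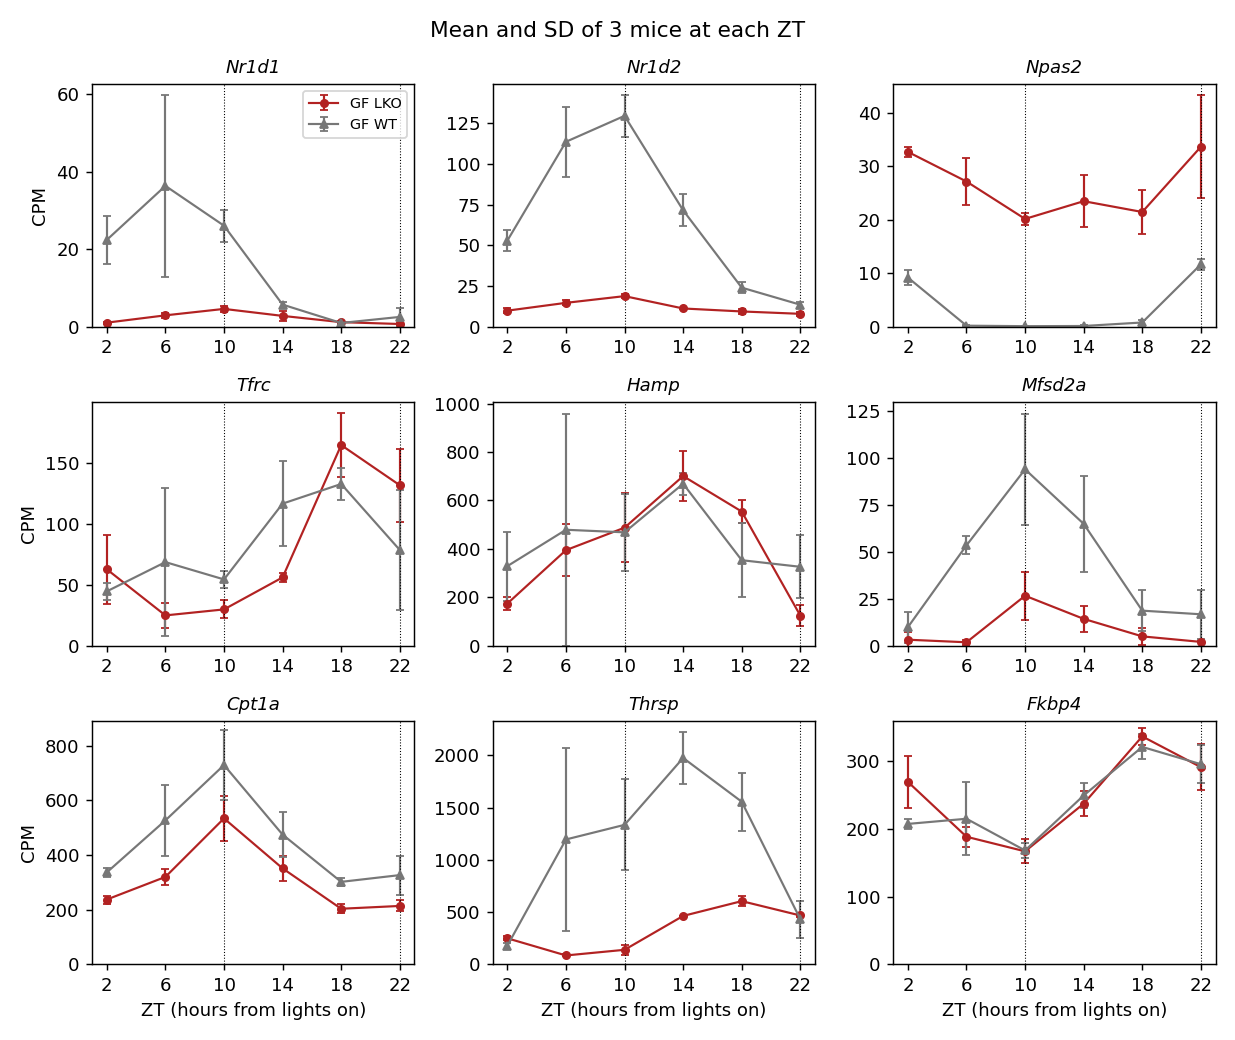
Mean CPM and SD of 3 mice at each of the 6 ZT (horizontal axis, hours) for 9 genes, in GF LKO mice (red circles) and GF WT mice (grey triangles), with vertical axes from 0 and dotted lines at ZT10 and ZT22. Nr1d1, Nr1d2 and Cpt1a are highest at ZT10 in GF LKO mice and Tfrc and Fkbp4 lowest near it. The GF WT mean of Nr1d1 at ZT6, 36.4 CPM, includes replicate 3 at 9.36 CPM beside 50.5 and 49.2 CPM in the other mice.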

How the data were processed

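Livers were taken from 72 mice, and the deposited values are raw counts per gene that the authors did not normalize. Per the submitters' processing notes, reads of stranded single-end mRNA libraries were aligned with STAR 2.6.1b to mm10 and counted with featureCounts 2.0.0 on Ensembl release 97 genes, without strand and without reads that align or overlap more than once. The table lists 55573 genes, 55394 with a symbol in the names table, and 0 columns were unused. Libraries were grouped by their labels, and all 72 were kept. TMM factors and edgeR's filter on low counts (14636 genes kept) were computed over the 72 libraries, and CPM are scaled by them. edgeR 4.0.16 (R 4.3.3) fitted 8 means (4 groups at ZT10 and ZT22) to 24 libraries and tested ZT10 against ZT22 in GF LKO mice and its difference from GF WT and from SPF LKO mice. ZT6 against ZT18 was fitted on 18 GF LKO libraries. The study's methods name DESeq2, here (1.42.0) an alternative beside other scaling, filter, fold limit, replicate block, smaller and larger sets of libraries and each library left out. P-values were adjusted by Benjamini-Hochberg over all genes at 0.05. The SE is the size of the log2 fold change divided by the square root of F. In simulated data the changed genes were drawn from those with a mean above 2 CPM, so recovery of rarer genes was not tested. For GF LKO mice the test recovered 82 of 100 genes changed 2-fold and 100 of 100 changed 4-fold, with 5 others called. For the difference from SPF LKO mice it recovered 51 and 99, so differences of 2-fold are often missed.

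The groups, gene lists and genes were chosen with earlier results of these data known. Named genes were the 10 largest rises and 10 largest falls among called genes whose groups did not overlap and whose mean log2 CPM was at least 1, all clock genes, up to 5 called members of each other list, a set of metabolic, glucocorticoid and temperature genes whatever their values, and the 10 genes with the smallest p in each test of a difference. Some of the genes so chosen are not reported here. Coordinates are those of the Ensembl release 97 genes on GRCm38. Promoters came from RefSeq (GRCm38.p6). Scripts used Python 3.11.15, pandas 2.3.3 and matplotlib 3.10.9.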

Additional observations from a re-analysis of the deposited data

Results flagged for a closer look

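For 306 genes edgeR called a difference between GF LKO mice and GF WT mice in ZT10 over ZT22. Below, each value is the log2 fold change in GF LKO mice minus that in GF WT mice, for the genes named here. With 3 mice at each ZT, single mice could not be tested for lying apart from their group.

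Clock genes made up 10 of those named. Positive values were found for Npas2 at 5.702, Arntl at 5.47, Nfil3 at 2.065, Cry1 at 1.498 and Clock at 1.467. Negative values were found for Dbp at -5.27, Per3 at -3.856, Tef at -2.199, Nr1d2 at -2.015 and Per2 at -1.753. In each of these the size was larger in GF WT mice, whose log2 fold changes ran from -6.44 for Npas2 to 6.45 for Dbp.

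Among metabolic and other genes the difference was 3.075 for Clpx, an unfoldase of mitochondria, 2.877 for Tubb2a, 2.877 for Slc30a10, a manganese exporter, 2.449 for Lgalsl, 2.447 for Dtx4, 1.97 for Mreg and -1.796 for Gys2, hepatic glycogen synthase. Each of these was called in GF WT mice. In GF LKO mice Tubb2a and Dtx4 were called too, Dtx4 at -0.58 (adjusted p = 0.0289), a call lost without ZT10 replicate 1 (0.073), ZT10 replicate 3 (0.143), ZT22 replicate 2 (0.145) or ZT22 replicate 3 (0.109).

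A further group had the larger size in GF LKO mice or opposite signs in the 2 genotypes. The values were -3.386 for Thrsp, -1.651 for Elovl6, -1.73 for Gm14403, 2.59 for Gm15611, -3.345 for Mup17, 1.033 for Fga, 0.8423 for Fgb, -0.7028 for 0610031O16Rik and 0.5622 for Ccndbp1. Of these Gm14403 was not called in GF LKO mice (adjusted p = 0.181).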

How the results depend on the processing

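None of the 83 called genes that the naming rule chose changed direction under the alternatives run, but 12 of the 40 that were not called had fold changes near 0 whose sign varied, among them Cry2, Per3, Hlf, Nfil3, Fbp1, Pck2, Hspa1b and Rbm3. The share of higher genes among the calls for GF LKO mice, 53.2% as reported, was 47.6% without the filter on low counts, 48.1% with the replicate block, 49.7% with only the 6 libraries and 43.2% with a log2 fold change of at least 1. Without the filter on low counts the calls were 1268 for ZT10 against ZT22 in GF LKO mice, 640 for the difference from GF WT mice and 243 for the difference from SPF LKO mice, over 29776 genes tested. With a log2 fold change of at least 1 required they were 206, 198 and 0, and 422 for ZT6 against ZT18. DESeq2 gave 15 for the difference from SPF LKO mice, and the fit of only the 12 libraries compared gave 3. A fit of the 18 GF LKO libraries gave 1232 calls for ZT10 against ZT22, 691 of them among the 759 reported, and DESeq2 gave 1080, 750 of them shared. With 1 library left out the counts ran from 234 to 835 for GF LKO mice, from 206 to 302 for the difference from GF WT mice, stayed at 0 for the difference from SPF LKO mice, and ran from 1454 to 1852 for ZT6 against ZT18, where the lowest were without ZT18 replicate 1 (1454), ZT18 replicate 3 (1457) and ZT6 replicate 3 (1462). The cause of these changes was not tested.

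The labels share replicate numbers but do not say that a number marks a litter or a day, and same-numbered GF LKO mice of ZT10 and ZT22 deviated together at r = 0.211, 0.105 and -0.00922, with ZT10 replicate 2 closer to ZT22 replicate 3 (0.164). The fit with a replicate block gave 674, 256, 0 and 2225 calls, of which 569 were among the 759.

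Of the same 83 genes, 30 kept the call without each of the 6 libraries, 53 lost it without at least 1, and 3 (Dbp, Insig1 and Abcc3) without each. Most were lost without ZT10 replicate 3 (48), ZT22 replicate 3 (41) or ZT22 replicate 2 (40). The fit of only the 6 libraries ended 21 of the 83 calls (adjusted p from 0.0503 to 0.144), those of Abcb4, Apoa5, Arg1, Cdx4, Cyp2e1, Dgat1, Fga, Fgb, Lipg, Mt1, Myl9, Nop14, Npas2, Pes1, Polr1b, Serpina3n, Slc37a4, Ssr3, Tcaim, Txnrd1 and Vnn1. The fit of 18 libraries ended 6 (0.052 to 0.176), those of Alas1, Ces2b, Mup17, Myl9, Sgk1 and Vnn1. The replicate block ended 9 (0.0508 to 0.117), the missing filter 4 (Dgat1, Pes1, Ssr3 and Txnrd1) and DESeq2's size factors 1 (Dbp), while DESeq2 ended none. At about 17369927 to 19546956 counts a library, genes near 1 CPM rest on few reads.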

Other observations

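Other gene families of GF LKO mice were picked after their values were seen and so are given without a test of the family. Over all genes 2.76% were higher at ZT10 than at ZT22 and 2.43% lower, and 7.46% were higher at ZT6 than at ZT18 and 7.81% lower. Of 12 histone genes tested, 6 were lower at ZT10 and 0 higher, 11 had a negative log2 fold change, and the median was -1.48, beside -1.08 in GF WT mice. Hist1h2be was at 0.401, 0.306 and 0.366 CPM at ZT10 and 1.70, 2.09 and 2.46 CPM at ZT22 (log2 fold change -2.52, adjusted p = 0.000352), and Hist2h2be at 1.80, 2.24 and 2.09 CPM against 4.72, 6.57 and 5.24 CPM (-1.43, adjusted p = 0.000611). These 2 and Hist1h4i (-1.95) kept their calls without each library. Most histone transcripts lack a poly(A) tail, and libraries of poly(A) RNA hold only part of them. All 9 tubulin genes tested were negative (median -0.69), and 4 were called without any loss when a library was left out, Tubb2a, Tuba1c (-1.19), Tuba4a (-0.85) and Tubb4b (-0.69). Tubulins were also lower at ZT6 than at ZT18 in 6 of 9.

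All 11 guanylate-binding proteins tested, GTPases induced by interferon γ, were negative, with a median of -1.07 beside 0.05 in GF WT mice and -0.01 in SPF LKO mice, and 3 were called. In the reported fit edgeR called 0 of the 11 for the difference from GF WT mice and none for that from SPF LKO mice. For Gbp2b the difference from GF WT mice was -2.36 (adjusted p = 0.0924). Gbp2b kept its call, while Gbp6 and Gbp8 lost theirs without most single libraries (adjusted p up to 0.14 without ZT10 replicate 3 for Gbp6 and 0.12 for Gbp8). Between ZT6 and ZT18 in GF LKO mice 3 of the 11 were higher and 0 lower. The 20 major urinary proteins tested were all negative (median -0.45) with 1 call, Mup17. Many are near-identical copies, and reads that align more than once were not counted. The level of each copy is therefore uncertain, and the 20 are not read as separate results.

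Around Hamp, 17 genes of BMP ligands, BMP-SMAD targets and hepcidins held 4 calls, all higher at ZT10, beside 2.76% of all genes. Hamp, around which the 17 were picked, was 1 of the 4. A negative log2 fold change was found in 9 of the 17, and the median was -0.12. The other calls were Smad9 (1.32, adjusted p = 0.0295), Smad7 (0.89, adjusted p = 0.0427) and Bmp10 (0.82, adjusted p = 0.0338). Smad9 was lost without ZT10 replicate 3 (0.12), ZT22 replicate 2 (0.15) or ZT22 replicate 3 (0.092), Smad7 without every library but ZT22 replicate 1 (up to 0.17) and Bmp10 without ZT10 replicate 1 (0.098), ZT10 replicate 2 (0.099), ZT22 replicate 2 (0.10) or ZT22 replicate 3 (0.16). Id1, a BMP target, had 1.10 (adjusted p = 0.0514), and the paralog Hamp2 -1.29 (adjusted p = 0.101). Of genes that import iron, Slc11a2 was at 25.3, 28.5 and 26.8 CPM at ZT10 and 50.9, 52 and 41.1 CPM at ZT22 (-0.84, adjusted p = 0.000611).

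Larger fitted folds than that of Mfsd2a belonged to rare transcripts below the level set for naming genes. Rgs16, a regulator of G-protein signalling, was at 0.953, 1.99 and 6.01 CPM at ZT10 and 0.0531, 0 and 0.107 CPM at ZT22, the last group from 3 counts in all, and Fam107a at 0.953, 6.72 and 8.21 CPM against 0.159, 0.0582 and 0.588 CPM. Rgs16 was lost without any library but ZT10 replicate 1 (adjusted p up to 0.23), and Fam107a likewise (up to 0.15).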
